A study of Mus musculus with 8 samples.

Results

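The collagen genes of the mouse aorta were compared, chain by chain and type by type, between controls and a mouse model of thoracic aortic dissection (TAD). The members were all rows of the gene table whose symbol was made of Col, a type number, the letter a and a chain number. This gave 34 collagen chains among 13839 genes. By the kind of assembly their protein forms there were 9 fibrillar chains, 8 network-forming chains, 6 FACIT chains (fibril-associated collagens with interrupted triple helices) and 11 others. All 34 had enough counts to be tested, together with 13701 genes in all. Col2a1, Col24a1, Col10a1, Col9a1, Col9a2, Col22a1, Col6a4, Col17a1, Col25a1 and Col26a1 were not analysed here.

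RNA from aortic tissue was sequenced in 5 control libraries and 3 TAD libraries. For the model, mice on a normal diet drank water with β-aminopropionitrile monofumarate at 1 g/kg per day from 3 weeks of age for 4 weeks. This compound (BAPN) blocks lysyl oxidases, the enzymes that cross-link collagen. At 7 weeks of age they received pumps under the skin that released 1 µg/kg of angiotensin II per minute, and the tissue was taken 24 h after that. What the controls received, the strain and sex of the mice, the segment of aorta and whether each TAD mouse had a dissection are not given in the sources used here. Since the labels do not tie each library to a separate mouse, all p-values measure only how far these libraries spread.

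Collagens are triple helices of 3 alpha chains, which can be copies of the same chain or products of different genes. In the aortic wall, types I and III form the fibrils that bear load in the media and adventitia, type V starts and limits fibril growth, and FACIT collagens sit on the fibril surface. Type IV forms the meshwork of the basement membranes around smooth muscle cells and under endothelium, type VIII forms a short-chain network made by vascular cells, and type VI forms beaded filaments around cells.

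Libraries held between 12042971 and 15039132 counts. Levels are given as CPM, the usual scaling of counts to library size, with totals adjusted by the TMM method. Markers of other cell types differed widely among the libraries. The library TAD 2 held 2160.2 CPM summed over 6 nerve and Schwann cell markers, against 47.4 to 236 CPM in the other 7 libraries. It also had the lowest sum of 8 adventitial fibroblast markers (1001 CPM, against 2469 to 4218 CPM in the controls and 2571 to 3409 CPM in the other TAD libraries) and of 8 smooth muscle markers (867 CPM, against 2144 to 12049.5 CPM elsewhere). Heart muscle markers were at 17037 CPM in control 1 and 11215 CPM in TAD 1, against 30.7 to 2913 CPM in the other 6 libraries. Control 2 held 721 CPM of Ckm, the 1 skeletal muscle marker measured, against 0 to 92.5 CPM elsewhere. It also had the highest sum of 2 epithelial markers (29.8 CPM, against 0.224 to 22.9 CPM elsewhere). None of the 8 fibroblast markers and none of the 8 smooth muscle markers passed the edgeR test between groups at an adjusted p below 0.05, and the fitted change of all 8 smooth muscle markers was negative. In whole tissue, fewer cells of a type and less RNA per cell cannot be told apart.

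Across the family, few chains passed the test between the groups. In the edgeR quasi-likelihood test with Benjamini-Hochberg adjustment over all 13701 genes, 4 of the 34 chains had an adjusted p below 0.05, which is 11.8% of the chains beside a background of 27.0% of all genes tested. The 3 chains that were higher in TAD were Col12a1, Col4a1 and Col16a1, against a background of 15.2% of genes higher. The chain that was lower was Col6a6, against a background of 11.8% of genes lower. The share of chains called was therefore below that of all genes. The libraries of the groups did not overlap for 4 chains, Col12a1 and Col4a1 (higher in every TAD library) and Col6a5 and Col6a6 (lower in every TAD library), beside a background of 31.9% of genes without overlap (16.9% higher and 15.0% lower). At an unadjusted p below 0.05, the edgeR test listed 10 of 34 chains and 5539 of all genes tested.

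The fitted changes of the chains came with wide errors. They were at least 1 on the log2 scale, in either direction, for 12 of 34 chains and for 3182 of all 13701 genes, and the median log2 fold change was 0.13 over the chains and 0.04 over all genes tested. The standard error of the log2 fold change had a median of 0.561 over the chains and 0.242 over all genes, and 31 of 34 chains lay above the latter. The same libraries were extreme for many chains. TAD 2 was the lowest TAD library for 24 of 34 chains and TAD 3 the highest for 24, while control 1 was the lowest control for 22 chains and control 3 the highest for 19.

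By type, 8 of 9 fibrillar chains had a positive fold change but none passed the test, with a median of 0.91 on the log2 scale. The fibrillar direction depended in part on TAD 3 and on the values used. With log2(TPM + 1) values, where the median of all genes moved to -0.12, 6 of 9 fibrillar chains stayed positive (median 0.28). Without TAD 3 there were 5 of 9 (median 0.23). With upper-quartile or RLE scaling of the counts it stayed 8 of 9 (medians 0.86 and 0.90). Of the 8 network chains, 3 had a positive and 5 a negative fold change (median -0.55, Col4a1 called). Of the 6 FACIT chains, 3 were positive and 3 negative (median -0.15, Col12a1 and Col16a1 called). The 11 other chains had 4 positive and 7 negative fold changes (median -0.24, Col6a6 called).

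Which chains were called depended on single libraries. Without TAD 2 the edgeR test called 8 chains (27.1% of all genes), 7 of them higher, with Col3a1, Col5a2, Col8a1 and Col4a2 joining Col12a1, Col4a1, Col16a1 and Col6a6. Without TAD 3 it called 7 chains (26.9% of all genes), Col12a1 and Col5a3 higher and Col19a1, Col4a3, Col4a4, Col8a2 and Col6a6 lower. Without TAD 1 it called 1 chain, Col6a6 (18.5% of all genes), and without control 4 it called 2, Col12a1 and Col6a6 (20.2% of all genes). With control 1 and TAD 1 both left out, edgeR called 0 chains (14.3% of all genes) and listed 6 at an unadjusted p below 0.05. On all libraries DESeq2 called 8 chains (34.5% of all genes), and limma on log2(TPM + 1) called Col12a1 and Col6a6 (20.0% of all genes). Col6a6 was called in each of these except the fit without control 1 and TAD 1.

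**Figure D1:**
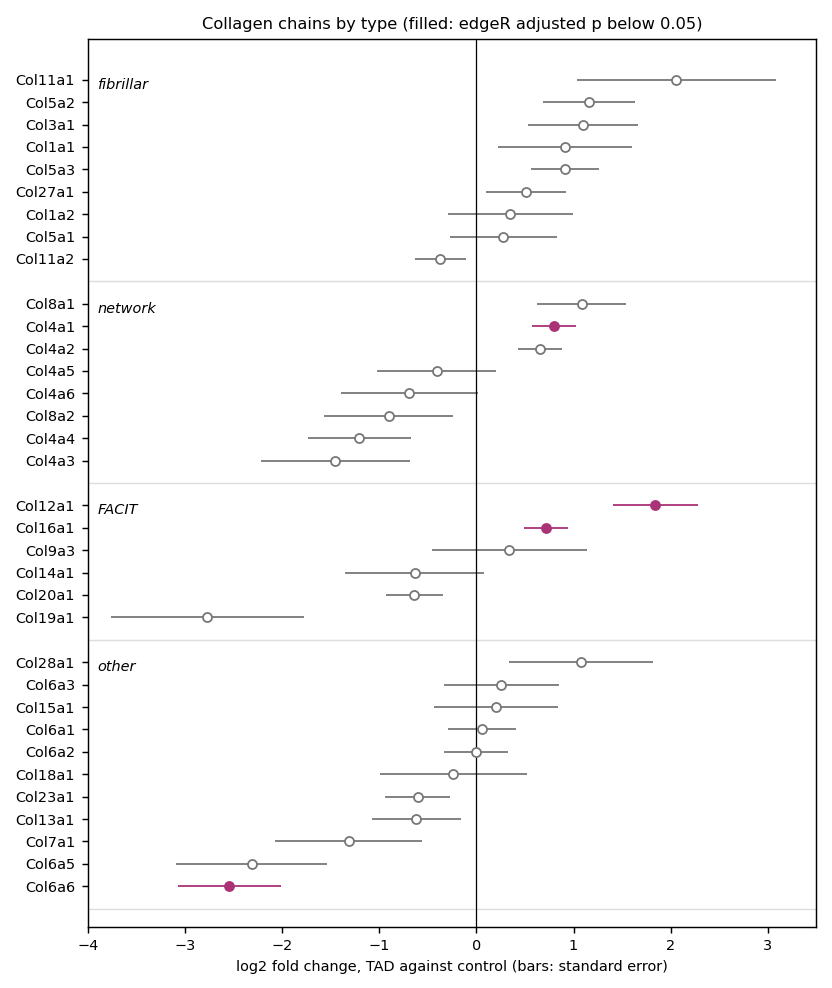
Log2 fold change of TAD against control for each of the 34 collagen chains (x axis, points; bars are the standard error of the edgeR fit), grouped by type on the y axis. Filled points mark the 4 chains with an adjusted p below 0.05; 8 of 9 fibrillar chains lie right of 0 (6 of 9 with log2(TPM + 1) values), with wide bars, and Col19a1 (-2.77) and Col6a6 (-2.54) lie farthest left.

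Summed collagen transcripts made up 0.417, 0.776, 1.20, 0.987 and 0.814% of the counts in controls 1 to 5 and 1.34, 0.512 and 2.04% in TAD 1 to 3. The TAD libraries thus held both the highest share and a share below all controls but control 1. The mean was 0.838% ± 0.289 (SD, n = 5) in control and 1.30% ± 0.765 (SD, n = 3) in TAD, so the difference of 0.460 percentage points was smaller than the SD among TAD libraries. Fibrillar chains supplied 44.4 to 54.6% of the collagen counts in the controls and 59.5, 34.4 and 65.4% in TAD 1 to 3.

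The share of the collagen counts held by the FACIT and other chains was lower in each TAD library. FACIT chains supplied 3.25% ± 0.358 (SD, n = 5) of collagen counts in control and 2.31% ± 0.267 (SD, n = 3) in TAD, and each TAD library was below each control. The other chains supplied 21.2% ± 1.96 (SD, n = 5) in control and 14.0% ± 3.28 (SD, n = 3) in TAD, again without overlap. These shares were not tested, and the levels themselves overlapped between groups. Summed FACIT transcripts were at 270.4 ± 78.1 CPM (SD, n = 5) in control and 288 ± 153 CPM (SD, n = 3) in TAD. In control most of this sum was Col14a1, with a mean of 197 CPM against 127 CPM in TAD. Col12a1 (28.1 and 101 CPM) and Col16a1 (32.4 and 53.2 CPM) had higher means in TAD. The FACIT share therefore does not describe each FACIT chain, of which 3 had positive and 3 negative fold changes. The other chains ran from 835 to 3019 CPM in control and from 768 to 3297 CPM in TAD. Network chains made 21.3 to 33.3% of collagen counts in the controls and 27.6, 47.8 and 16.2% in TAD 1 to 3.

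**Figure D2:**
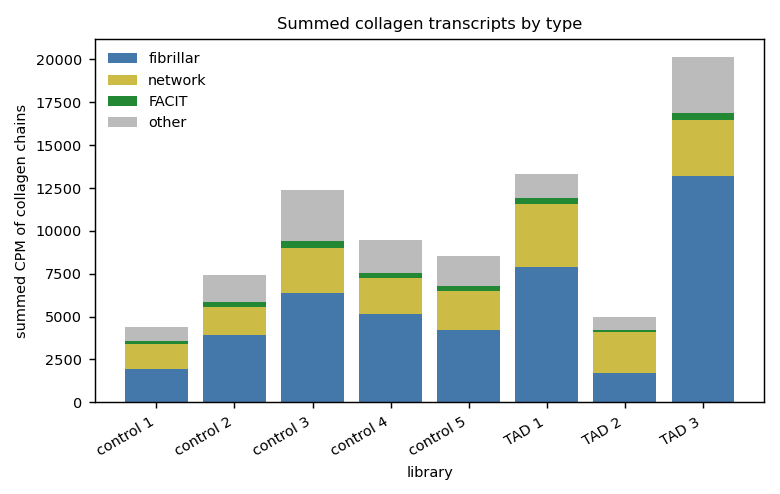
Summed CPM of the collagen chains in each library (y axis, stacked bars from 0) by type. TAD 3 has the tallest bar (20161 CPM) and TAD 2 (4966 CPM) lies between control 1 (4396 CPM) and control 2 (7434 CPM); the fibrillar part (blue) varies most among the TAD libraries, from 1708 to 13181 CPM.

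Comparing levels between genes, on the scale of CPM per kilobase of the longest coding transcript and averaged over all 8 libraries, Col3a1 was highest at 348, followed by Col1a2 at 275, Col1a1 at 245, Col4a1 at 197, Col4a2 at 132 and Col18a1 at 110 CPM per kb. In controls alone the means were 249 ± 118 (SD, n = 5) for Col1a2, 244 ± 70.3 for Col3a1, 184 ± 82.8 for Col1a1 and 155 ± 31.1 for Col4a1. All chains were measured in the same libraries, so these SDs do not order them. On this length, each control held less Col1a1 than Col1a2 (Col1a1/Col1a2 from 0.703 to 0.778). Each control also held less Col1a1 than Col3a1 (Col3a1/Col1a1 from 1.12 to 1.94). At the other end, Col6a5, Col9a3, Col19a1 and Col11a1 averaged 0.348, 0.363, 0.450 and 0.484 CPM per kb. The deposited FPKM cannot be used for this order, because it divides by exon bases summed over every transcript of a gene. Its Col1a1 to Col1a2 ratio averaged 2.40, against 0.842 on the per-kb scale. The order also depended on the length used. Per kb of all exons of a gene merged, the Col1a1 to Col1a2 ratio averaged 1.77. On that length Col3a1 to Col1a1 averaged 0.968, against 1.54 per kb of the longest coding transcript.

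The fibrillar chains of types I and III are Col1a1, Col1a2 and Col3a1, and none passed the test. Together they supplied 37.0 to 47.8% of collagen counts in the controls and 53.1, 24.4 and 58.0% in TAD 1 to 3. Col3a1, which forms the type III homotrimer of extensible tissues, was at 744, 1517, 1805, 1429.9 and 1286 CPM in controls 1 to 5 and at 3074, 569.6 and 5067 CPM in TAD 1 to 3. TAD 1 and TAD 3 lay above every control and TAD 2 below every control. With this spread the log2 fold change was 1.10 ± 0.57 (SE; edgeR adjusted p = 0.185). Without TAD 2 it was 1.59 (edgeR adjusted p = 0.0131).

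Col1a1, which supplies most chains of the type I heterotrimer, was at 408, 873, 1708, 1356 and 1114 CPM in controls 1 to 5 and at 2281, 285 and 3601 CPM in TAD 1 to 3. It showed the same picture as Col3a1, with TAD 2 below all controls and the other TAD libraries above all of them (log2 fold change 0.91 ± 0.69, SE; edgeR adjusted p = 0.357). Its partner Col1a2 was at 473, 1039, 2111, 1741 and 1302 CPM in controls and at 1710.4, 358 and 3017 CPM in TAD 1 to 3. Here only TAD 3 exceeded the controls, and the log2 fold change of 0.35 ± 0.64 (SE; edgeR adjusted p = 0.724) turned to -0.37 without TAD 3 and to -0.10 with log2(TPM + 1) values.

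The chromosome 1 neighbours Col3a1 (GRCm38, chr1:45311538-45349706, plus strand) and Col5a2 (chr1:45374321-45503282, minus strand) lie 24614 bases apart with their 3′ ends facing each other. Their log2 fold changes were 1.10 and 1.16. The sequence before the start of Col3a1, the chain with the highest level per kilobase of the longest coding transcript, is shown. Capitals mark the match found among 4 motifs searched on both strands. The motifs were the CCAAT box, the GC box GGGCGG, the TATA box TATAAA and the AP-1 site TGANTCA. The sequence comes from the RefSeq promoter table of GRCm38.p6, chr1:45311288-45311537, plus strand.
Col3a1: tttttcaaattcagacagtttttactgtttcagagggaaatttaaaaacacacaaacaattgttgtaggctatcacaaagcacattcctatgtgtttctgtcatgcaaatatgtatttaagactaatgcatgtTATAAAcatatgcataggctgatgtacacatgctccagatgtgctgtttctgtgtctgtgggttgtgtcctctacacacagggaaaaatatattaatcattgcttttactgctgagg
The window of 250 bases holds TATAAA once, a motif present in 12.4% of the 32851 promoter windows of this length, and its GC content is 35.2%. A promoter entry existed for 28 of the 34 chains.

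The type V chains join type I in the same fibrils, and neither Col5a1 nor Col5a2 passed the edgeR test. Col5a2 was at 104, 202, 305, 270.5 and 205 CPM in controls 1 to 5 and at 473, 173 and 811 CPM in TAD 1 to 3, and Col5a1 was at 112, 201, 339, 271 and 219 CPM in controls and at 270.3, 69.1 and 491 CPM in TAD. In the controls the pair were therefore near equal in CPM, while every TAD library held more Col5a2 than Col5a1. Col5a2 had a fold change of 1.16 ± 0.47 on the log2 scale (SE; edgeR adjusted p = 0.103). For Col5a1 it was 0.28 ± 0.55 (SE; edgeR adjusted p = 0.744), and it turned to -0.43 without TAD 3 and to -0.18 with log2(TPM + 1) values. DESeq2, run as another tool, called Col5a2 (adjusted p = 0.0473).

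As a ratio within each library, Col5a1/Col5a2 was 0.844, 0.785, 0.875, 0.788 and 0.844 per kb in controls 1 to 5 and 0.450, 0.314 and 0.477 in TAD 1 to 3. Every TAD library lay below every control. The mean ratio was 0.827 ± 0.0392 (SD, n = 5) in control and 0.414 ± 0.0874 (SD, n = 3) in TAD, a log2 difference of -1.02. An exact permutation test, two-sided, gave p = 0.0179, the smallest that 5 against 3 libraries allow. After Benjamini-Hochberg adjustment over the 5 ratios tested it was 0.0893, above the threshold. A ratio that alone reached the smallest p could not pass after this adjustment, so the adjusted value decides nothing here. The log2 difference lay between -1.14 and -0.83 with each library left out in turn. In Col5a1, 2.50% of exon bases overlap genes on the opposite strand, and the sources used here do not say whether the counts used strand.

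The other 4 ratios tested had smaller differences. Col1a1/Col1a2 ran from 0.703 to 0.778 per kb in the controls and was 1.20, 0.720 and 1.08 in TAD 1 to 3, so TAD 1 and TAD 3 lay above the controls and TAD 2 among them (log2 difference 0.39, exact permutation p = 0.0893, adjusted 0.223). For Col3a1/Col1a1 the ranges were 1.12 to 1.94 and 1.44 to 2.13 per kb (log2 difference 0.23, exact permutation p = 0.411, adjusted 0.411). Col4a1/Col4a2 ran from 1.33 to 1.52 in control and from 1.39 to 1.69 in TAD (log2 difference 0.13, exact permutation p = 0.143, adjusted 0.238). Col6a1/Col6a2, whose products are joined in the same type VI molecule, ran from 1.06 to 1.09 in control and from 1.03 to 1.17 in TAD (log2 difference 0.04, exact permutation p = 0.357, adjusted 0.411). Type VI thus showed the narrowest control range of the 5 ratios. Col8a1/Col8a2 was not tested because Col8a2 fell to 6 counts in a library; it ran from 2.40 to 11.3 per kb in control and from 14.2 to 42.2 in TAD, without overlap, with a mean log2 FPKM ratio of 1.91 in control and 4.31 in TAD.

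**Figure D3:**
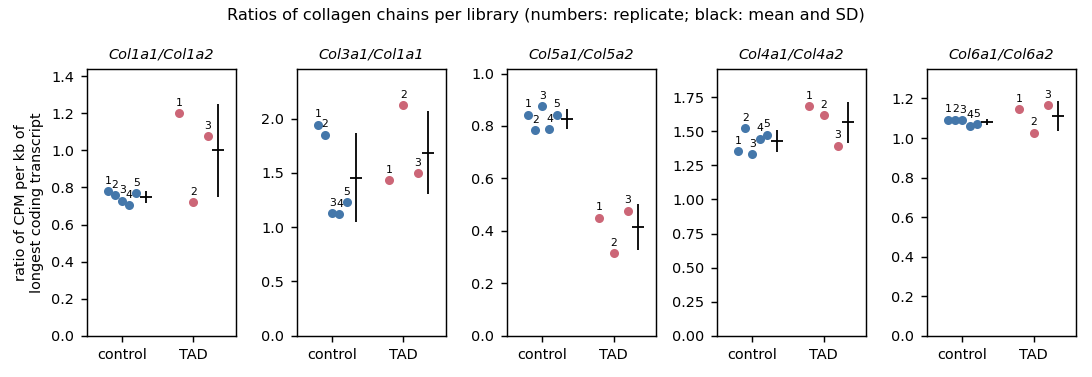
Ratio of CPM per kb of the longest coding transcript for 5 pairs of chains (y axes from 0), with a point per library labelled by its replicate number and the mean and SD in black. For Col5a1/Col5a2 the TAD points (0.314 to 0.477) lie below all control points (0.785 to 0.875); for the other pairs the groups overlap.

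The remaining fibrillar chains were less abundant. Col5a3, a type V chain that was chosen for its pattern after its values were seen, was at 46.2 to 68.1 CPM in control and at 62.5, 187 and 66.2 CPM in TAD 1 to 3. Its log2 fold change of 0.91 ± 0.35 (SE; edgeR adjusted p = 0.0874) rested on TAD 2, without which it was 0.20. TAD 2 is the library with the high nerve markers (2160.2 CPM), and the part of nerve tissue in this value was not tested.

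Col11a1, a chain best known from cartilage fibrils, was at 2.00, 5.40, 0.597, 0.0734 and 0.384 CPM in controls 1 to 5 and at 10.8, 7.56 and 2.82 CPM in TAD 1 to 3. Control 2 exceeded TAD 3, so the groups overlapped (log2 fold change 2.06 ± 1.02, SE; edgeR adjusted p = 0.169). Without control 2 the log2 fold change was 3.20 (edgeR adjusted p = 0.0395). Summed over 5 cartilage markers the level was 18.1 to 72.0 CPM in control and 16.8 to 166 CPM in TAD, and none of the 5 was called by edgeR; the part of cartilage in this value was not tested. Col27a1 ranged from 38.3 to 55.8 CPM in control and from 25.7 to 118 CPM in TAD, with a log2 fold change of 0.51 that turned to -0.25 without TAD 3. Col11a2 ranged from 6.19 to 11.8 CPM in control and from 5.78 to 7.48 CPM in TAD.

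Among the network collagens, Col4a1 was higher in TAD. This chain, which with Col4a2 builds the basement membrane of most vessels, was at 771, 872, 1241, 1022 and 1209.97 CPM in controls 1 to 5 and at 2217, 1432 and 1684 CPM in TAD 1 to 3. All TAD libraries lay above all controls, TAD 2 included. The log2 fold change was 0.80 ± 0.23 (SE; edgeR adjusted p = 0.031), a fold of 1.74. The call was lost without control 1 (edgeR adjusted p = 0.0544), control 2 (0.0747), control 4 (0.0655), TAD 1 (0.129) or TAD 3 (0.0506), while the log2 fold change stayed between 0.60 and 0.93 across the libraries left out. Its call was also lost with log2(TPM + 1) values in limma (0.64, adjusted p = 0.129).

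Col4a2 was at 555, 559, 909, 689 and 800.1 CPM in controls 1 to 5 and at 1283, 863 and 1177 CPM in TAD 1 to 3. TAD 2 lay below control 3, so the groups overlapped by this library, and the log2 fold change of 0.66 ± 0.22 (SE; edgeR adjusted p = 0.0594) missed the threshold. DESeq2 called it (adjusted p = 0.0213), as did edgeR without TAD 2 (0.039) or without control 3 (0.0445).

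The rarer type IV chains had negative fold changes. Col4a3, whose trimer with Col4a4 and Col4a5 is known from the kidney filter, was at 6.78, 6.30, 17.8, 13.3 and 8.60 CPM in controls 1 to 5 and at 1.73, 0.729 and 9.07 CPM in TAD 1 to 3. Col4a4 was at 18.1, 15.1, 40.8, 26.7 and 17.2 CPM in controls and at 5.51, 5.37 and 19.8 CPM in TAD. For both, TAD 1 and TAD 2 lay below all controls and TAD 3 within them. The log2 fold changes were -1.45 ± 0.77 for Col4a3 and -1.20 ± 0.53 for Col4a4 (SE; edgeR adjusted p = 0.194 and 0.127). Without TAD 3 they were -3.11 and -2.12 (edgeR adjusted p = 0.0103 and 0.013). Of the exon bases of Col4a3, 5.65% overlap a gene on the opposite strand.

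Col4a5 and Col4a6, neighbours on the X chromosome whose products are joined in the basement membrane of smooth muscle, had log2 fold changes of -0.41 ± 0.61 and -0.69 ± 0.70 (SE; edgeR adjusted p = 0.658 and 0.499). Col4a5 ran from 64.9 to 268 CPM in control and from 39.3 to 214 CPM in TAD, and Col4a6 from 29.9 to 152 and from 14.0 to 105 CPM. The libraries lowest in both were TAD 2 and control 1. As a share of all type IV counts, Col4a1 and Col4a2 together held 91.7, 90.7, 81.8, 83.7 and 89.6% in controls 1 to 5 and 96.7, 97.5 and 89.2% in TAD 1 to 3. Only TAD 1 and TAD 2 exceeded the controls.

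The 6 type IV genes lie in 3 pairs whose starts face each other, and both members of each pair had the same sign. Col4a1 (chr8:11198423-11312826, minus strand) and Col4a2 (chr8:11312805-11449287, plus strand) overlap by 22 bases at their starts, Col4a4 (chr1:82448423-82586849, minus strand) and Col4a3 (chr1:82586921-82722059, plus strand) are 71 bases apart, and Col4a6 and Col4a5 are 1308 bases apart. The fold changes within a pair differed by 0.14, 0.25 and 0.28 on the log2 scale. The shared bases of the first pair and the gap of the second pair are shown because these stretches lie between or inside the starts of chains that had opposite signs in the 2 pairs. They are given on the plus strand of GRCm38.p6, at chr8:11312805-11312826 and chr1:82586850-82586920, cut by the coordinates of GENCODE M21 from the RefSeq promoter table, with motif matches in capitals.
Col4a1-Col4a2 shared start: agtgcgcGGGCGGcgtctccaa
Col4a4-Col4a3 gap: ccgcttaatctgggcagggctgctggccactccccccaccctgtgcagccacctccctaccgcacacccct
The shared start holds GGGCGG once, which 4.09% of promoter windows of 22 bases hold, and none of the 4 motifs lies in the gap. GC content was 72.7% in the former and 69.0% in the latter. As these windows are short, an absent match says only that these letters are not there.

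Type VIII chains form the short-chain network of vascular matrix. Col8a1 was at 18.0, 40.1, 13.3, 15.3 and 20.6 CPM in controls 1 to 5 and at 57.3, 18.0 and 61.5 CPM in TAD 1 to 3. TAD 1 and TAD 3 exceeded all controls, TAD 2 did not, and control 2 stood apart from the other controls. In the fit, Col8a1 reached 1.09 ± 0.46 on the log2 scale (SE; edgeR adjusted p = 0.113). It was 1.47 without TAD 2 (edgeR adjusted p = 0.0267) and 1.43 without control 2 (0.041). Col8a2 ranged from 2.16 to 4.70 CPM in control and from 0.398 to 3.68 CPM in TAD (log2 fold change -0.90 ± 0.66, SE; edgeR adjusted p = 0.345).

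The largest increase among the chains called was that of the FACIT chain Col12a1, whose homotrimer coats type I fibrils in tissue under tension. Col12a1 (chr9:79598991-79718831, minus strand) was at 12.9, 46.7, 30.4, 22.1 and 28.3 CPM in controls 1 to 5 and at 167, 55.7 and 79.2 CPM in TAD 1 to 3. Every TAD library exceeded every control. The mean rose from 28.1 ± 12.4 CPM (SD, n = 5) to 101 ± 58.9 CPM (SD, n = 3), with a log2 fold change of 1.84 ± 0.44 (SE; edgeR adjusted p = 0.0161), a fold of 3.59. The call was lost without TAD 1, the highest library, where the log2 fold change was 1.26 (edgeR adjusted p = 0.0751). It was also lost without control 1 and TAD 1 (1.08, edgeR adjusted p = 0.0623) and with replicate number as a block (1.72, 0.170). In the block fit, controls 4 and 5 had no TAD library of the same number and did not inform the fold change. The call held without each other library in turn (edgeR adjusted p from 0.0109 to 0.0424) and with log2(TPM + 1) values in limma (1.42, adjusted p = 0.0399).

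Col16a1, a FACIT chain of fibrillin-rich and collagen fibrils, was at 26.7, 44.4, 32.6, 26.6 and 31.9 CPM in controls 1 to 5 and at 56.4, 37.6 and 65.6 CPM in TAD 1 to 3. TAD 2 lay below control 2, so the groups overlapped. It rose by 0.71 ± 0.23 on the log2 scale (SE; edgeR adjusted p = 0.0476), just inside the threshold. Among the libraries left out in turn the call held only without control 2 (edgeR adjusted p = 0.0289) or TAD 2 (0.0166); without control 1, 3, 4, 5, TAD 1 or TAD 3 the adjusted p was 0.0886, 0.0861, 0.1, 0.0917, 0.135 and 0.145. The call was also lost with RLE scaling (edgeR adjusted p = 0.0503) and upper-quartile scaling (0.0659), so it depended on the scaling as well.

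The other FACIT chains were not called. Col14a1, a fibril-associated chain of the adventitia and of tendon, was at 91.9, 177, 279.8, 229 and 209 CPM in controls 1 to 5 and at 111, 15.7 and 255 CPM in TAD 1 to 3. TAD 2 was far below the other libraries, and it was also the library with the lowest sum of fibroblast markers (1001 CPM); the part of fibroblast content was not tested. The log2 fold change was -0.63 ± 0.71 (SE; edgeR adjusted p = 0.543).

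Col19a1, a FACIT chain found at basement membranes, was low throughout, at 0.878, 1.87, 4.33, 4.91 and 2.15 CPM in controls 1 to 5 and at 0.0822, 0.0663 and 1.05 CPM in TAD 1 to 3. TAD 1 and TAD 2 held 1 count each, and TAD 3, at 16 counts, lay above control 1. The log2 fold change was -2.77 ± 0.99 (SE; edgeR adjusted p = 0.0701). DESeq2 called it (adjusted p = 0.012), and edgeR did so without TAD 3 (log2 fold change -5.10, adjusted p = 0.0103). Col20a1 ranged from 6.09 to 12.7 CPM in control and from 4.93 to 6.36 CPM in TAD (log2 fold change -0.64 ± 0.29, SE; edgeR adjusted p = 0.135). Col9a3 stayed at or under 2.50 CPM in every library, and 6.07% of its exon bases overlap a gene on the opposite strand.

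**Figure D4:**
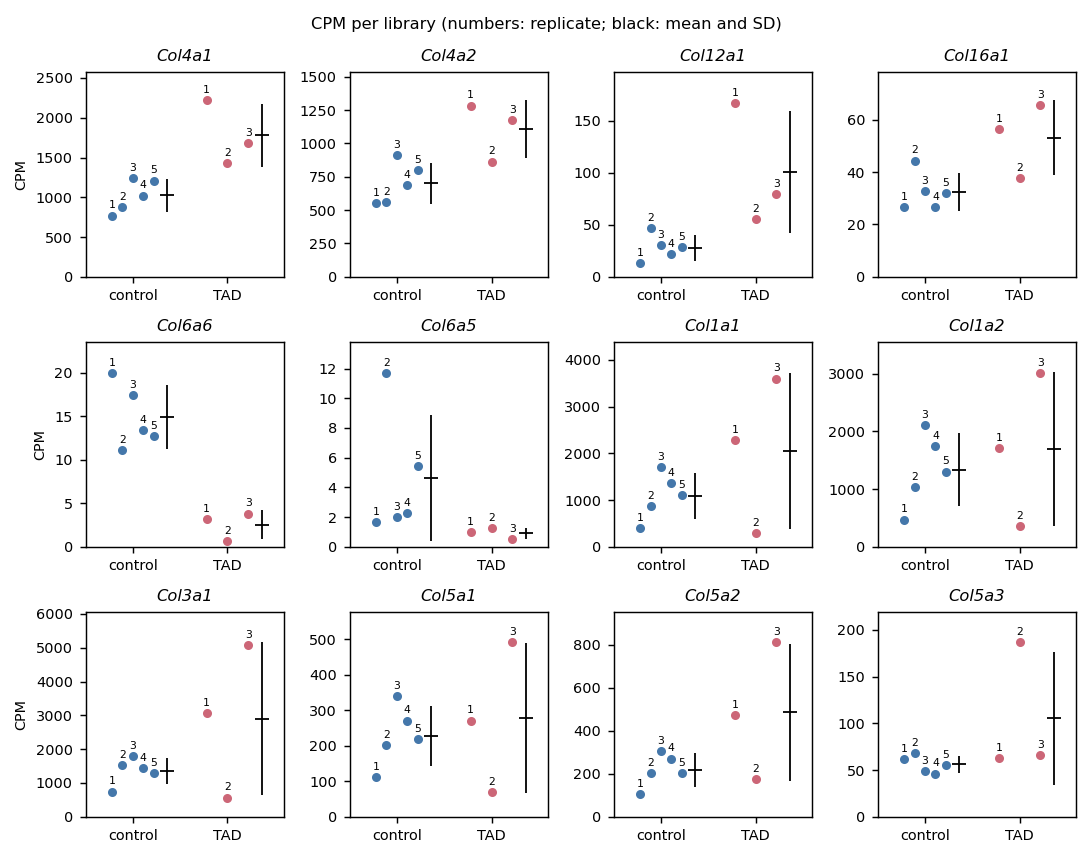
CPM of 12 collagen chains (y axes from 0) in the 5 control and 3 TAD libraries, with a point per library labelled by its replicate number and the mean and SD in black. Col4a1, Col12a1, Col6a6 and Col6a5 have no overlap between groups, while for Col1a1 and Col3a1 TAD 2 (285 and 569.6 CPM) lies below all controls and TAD 1 and TAD 3 above them.

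Type VI collagen split between its common and its rare chains. Col6a1 and Col6a2, required for every type VI molecule, were level between the groups. Col6a1 was at 188, 338, 477, 308 and 322 CPM in controls 1 to 5 and at 368, 184 and 467 CPM in TAD 1 to 3 (log2 fold change 0.06 ± 0.35, SE; edgeR adjusted p = 0.921). Col6a2 was at 195, 350.4, 496, 328 and 342 CPM in controls and at 364, 203 and 454 CPM in TAD (log2 fold change -0.01 ± 0.33, SE; edgeR adjusted p = 0.989). The ranges nearly coincided, although with standard errors of 0.35 and 0.33 on the log2 scale a modest change could have been missed. Col6a3, the usual partner of both, ranged from 107 to 361 CPM in control and from 87.2 to 627 CPM in TAD (log2 fold change 0.26 ± 0.59, SE; edgeR adjusted p = 0.782), and its fold change turned to -0.81 without TAD 3 and to -0.22 with log2(TPM + 1) values.

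Col6a6, a chain that can take the place of Col6a3, fell in TAD. It was at 19.96, 11.1, 17.4, 13.4 and 12.7 CPM in controls 1 to 5 and at 3.20, 0.663 and 3.81 CPM in TAD 1 to 3. All TAD libraries, at 10 to 58 counts, lay below all controls, at 148 to 250 counts. The mean was 14.9 ± 3.64 CPM (SD, n = 5) in control and 2.56 ± 1.67 CPM (SD, n = 3) in TAD, with a log2 fold change of -2.54 ± 0.53 (SE; edgeR adjusted p = 0.00898), a 5.82-fold decrease. The call held without each library in turn (edgeR adjusted p from 0.00312 to 0.0282, log2 fold change from -2.96 to -2.08) and with log2(TPM + 1) values in limma (adjusted p = 0.002), and was lost when control 1 and TAD 1, the libraries rich in heart muscle markers, were both left out (edgeR adjusted p = 0.0511, log2 fold change -2.61). The sum of 6 adipocyte markers was also lower in TAD, at 2126 to 3006 CPM against 7554 to 9332 CPM in control, with 4 of 6 called lower by edgeR; the part of fat tissue in the fall of Col6a6 was not tested.

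Its neighbour Col6a5, which can also stand in for Col6a3, was at 1.68, 11.7, 2.01, 2.27 and 5.45 CPM in controls 1 to 5 and at 0.986, 1.26 and 0.526 CPM in TAD 1 to 3. Every TAD library was below every control, by as little as 19 counts in TAD 2 against 21 in control 1. The log2 fold change of -2.31 ± 0.78 (SE) missed the threshold (edgeR adjusted p = 0.0579). DESeq2 called it (adjusted p = 0.00817). Col6a6 (chr9:105687809-105828160) and Col6a5 (chr9:105856078-105960643) lie 27917 bases apart on the minus strand. The sequence before the start of Col6a6, the chain that fell, is shown from RefSeq GRCm38.p6, chr9:105828161-105828335, written along the minus strand with motif matches in capitals.
Col6a6: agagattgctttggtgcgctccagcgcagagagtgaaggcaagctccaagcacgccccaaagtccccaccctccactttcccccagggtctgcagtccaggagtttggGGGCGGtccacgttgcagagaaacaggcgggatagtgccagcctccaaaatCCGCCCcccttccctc
The window of 175 bases holds GGGCGG on both strands, 2 matches in all, against 20.2% of promoter windows of this length with a match. The other 3 motifs were not in it, and its GC content is 61.7%.

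Among the rest, the chains of the multiplexin group, type XVIII being the source of endostatin, varied widely without a call. Col18a1 was at 158, 352, 1304, 790.1 and 645 CPM in controls 1 to 5 and at 298, 175 and 1183 CPM in TAD 1 to 3. It was thus high in control 3 and TAD 3 and low in control 1 and TAD 2, with a log2 fold change of -0.24 ± 0.76 (SE; edgeR adjusted p = 0.845) that turned positive without control 3, TAD 1 or TAD 2 (0.18, 0.07 and 0.19). Col15a1 was at 144, 158, 339, 233 and 159 CPM in controls and at 111, 62.7 and 541 CPM in TAD, again highest in control 3 and TAD 3. Its log2 fold change was 0.20 ± 0.64 (SE; edgeR adjusted p = 0.84) and -1.25 without TAD 3. The smooth muscle marker sum was likewise highest in control 3 (12049.5 CPM) among the controls and in TAD 3 (4992 CPM) among the TAD libraries; its part in these levels was not tested.

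Col7a1, the anchoring fibril chain of skin, was at 4.39, 17.7, 2.31, 4.55 and 5.84 CPM in controls 1 to 5 and at 0.822, 3.12 and 4.40 CPM in TAD 1 to 3. Only TAD 1 lay below all controls (log2 fold change -1.31 ± 0.76, SE; edgeR adjusted p = 0.23), and control 2 stood far above the rest. Control 2 also had the highest skeletal muscle and epithelial markers (721 and 29.8 CPM), whose part in its Col7a1 value was not tested. Col28a1, a type VI relative known from peripheral nerve, was at 8.62, 15.4, 3.28, 7.92 and 7.45 CPM in controls and at 7.56, 42.7 and 3.74 CPM in TAD. Its high value sat in TAD 2, the library with the nerve markers (2160.2 CPM), and its log2 fold change of 1.08 ± 0.74 (SE; edgeR adjusted p = 0.313) turned to -0.60 without TAD 2. The transmembrane chains Col13a1 (0.795 to 3.92 CPM over all libraries) and Col23a1 (5.09 to 17.2 CPM) had log2 fold changes of -0.62 ± 0.46 and -0.61 ± 0.34 (SE; edgeR adjusted p = 0.349 and 0.214).

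**Figure D5:**
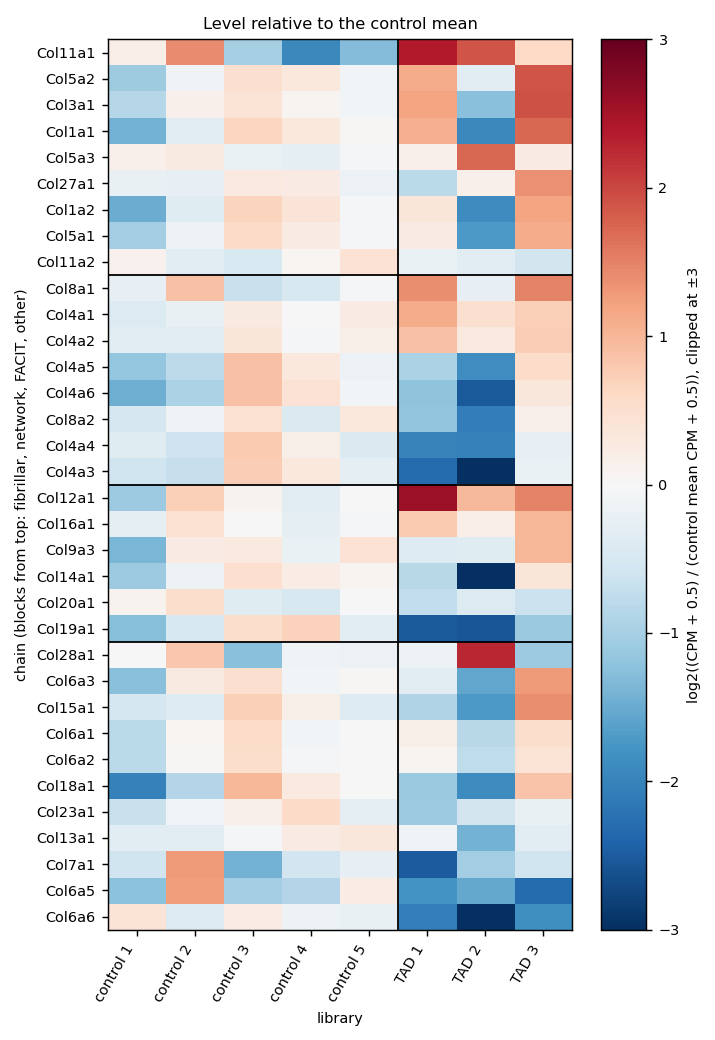
Level of each collagen chain (rows, by type) in each library (columns), as log2 of (CPM + 0.5) over (control mean CPM + 0.5), clipped at 3 in either direction; red is above and blue below the control mean. TAD 2 is blue for most rows and TAD 3 red for most fibrillar rows, whereas Col12a1 is red and Col6a6 blue in all 3 TAD libraries.

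The genes that make, cross-link, cut and bind collagen were set beside the chains as lists, to be read against the 27.0% of all genes called (15.2% higher, 11.8% lower) and the median log2 fold change of 0.04 over all genes. Of 15 genes for prolyl and lysyl hydroxylation and glycosylation of the chains, 2 were higher and 1 lower by edgeR, below the background share (list median 0.04 on the log2 scale). On the log2 scale the change was 2.88 ± 0.58 (SE; edgeR adjusted p = 0.00813) for P4ha3, a catalytic subunit of prolyl hydroxylase, and 0.89 ± 0.19 (0.00995) for P4hb, its partner subunit and a disulfide isomerase. It was -1.51 ± 0.49 (0.0499) for Colgalt2, which adds galactose to hydroxylysine. Of 15 genes for folding and secretion (median 0.17), 2 were higher, Fkbp10, a prolyl isomerase for procollagen (1.28 ± 0.41, edgeR adjusted p = 0.0495), and Sec13, a coat protein of secretory vesicles (0.52 ± 0.12, 0.0128).

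Of 13 genes for procollagen processing and fibril assembly (median 0.24), only Tll1, a tolloid protease that trims procollagen, was called (1.70 ± 0.38, edgeR adjusted p = 0.0128), while the abundant matrix proteins Sparc (0.49 ± 0.39, adjusted p = 0.375) and Bgn (0.17 ± 0.72, adjusted p = 0.884) were not. All 5 lysyl oxidases had positive fold changes (median 0.92) and 2 were called. Lox, the cross-linking enzyme that BAPN inhibits, was at 53.7, 76.1, 207, 138 and 141 CPM in controls 1 to 5 and at 868, 294 and 930.1 CPM in TAD 1 to 3, without overlap (log2 fold change 2.50 ± 0.49, edgeR adjusted p = 0.00707). Loxl4 was higher as well (1.68 ± 0.53, edgeR adjusted p = 0.0471), and TAD 2 lay among its controls. The rise of Lox was thus present in TAD 2, where the type I and III chains were lowest.

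Of 10 genes of collagenases and collagen uptake (median 0.97), 4 were higher, beside 15.2% of all genes: Mmp8 (log2 fold change 4.91 ± 1.16, edgeR adjusted p = 0.0156), a neutrophil collagenase; Mmp9 (3.09 ± 0.58, 0.00595), a gelatinase that cuts denatured collagen; Mmp14 (1.20 ± 0.26, 0.0107), a membrane collagenase; and Mrc1 (1.56 ± 0.32, 0.00896), a macrophage receptor that takes up collagen. All 4 neutrophil markers were called higher, their sum running from 3.36 to 66.7 CPM in control and from 229.8 to 902 CPM in TAD, and 2 of 6 macrophage markers were called higher, with sums of 294 to 576 and 597 to 1167 CPM. Of 9 collagen receptors (median 0.19), 3 were higher and 1 lower. Itga2 (2.12 ± 0.44, edgeR adjusted p = 0.00898), Gp6 of platelets (3.58 ± 0.58, 0.00305) and Lair1 of leukocytes (1.08 ± 0.34, 0.045) were higher, and Itga1, an integrin subunit that binds type IV collagen (-0.93 ± 0.20, 0.0119), was lower. The part of blood cells in these changes was not tested. Of 14 inducers and transcription factors of collagen genes (median 0.12), Tgfb1 (1.24 ± 0.13, edgeR adjusted p = 0.000542) and Runx1 (3.08 ± 0.40, 0.00132) were higher and the other 12 were not called.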

How the data were processed

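Total RNA of mouse aortic tissue (200 ng per library) was sequenced, per the labels' protocols. HTSeq, HISAT2, fastp 0.23.1 and bcl2fastq 2.19 are named in the submitters' processing notes, as are human builds, although the gene identifiers are those of mouse; the mouse build and the use of strand are not given in the sources used here. Per the file headers, the authors deposited a raw count and an FPKM for each gene in each library. Compared with GENCODE M21, the deposited FPKM divided by exon bases summed over all transcripts for 96.0% of genes compared (within 0.1%), so levels between genes were taken as CPM per kb of the longest coding transcript.

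Counts were filtered with filterByExpr, TMM-scaled and compared by the quasi-likelihood test of edgeR 4.0.16 in R 4.3.3, 5 control against 3 TAD libraries, no covariate, with Benjamini-Hochberg adjustment over all 13701 genes and a threshold of 0.05. SE is the absolute log2 fold change over the square root of F. The biological coefficient of variation was 41.6%. Ratios of 2 chains, planned on FPKM, give the same log2 difference on counts or per kb. They were tested by exact two-sided permutation where both chains had at least 10 counts in every library. Alternatives were DESeq2 1.42.0 and limma 3.58.1 on log2(FPKM + 1), log2(FPKM + 0.1) and log2(TPM + 1). TPM is FPKM rescaled so that every library has the same total. Other scalings, no filter, a replicate block and left-out libraries were also alternatives. Counts were also simulated for 13614 genes, 200 of them changed, with the spread set by the trend over expression level. There the edgeR test recovered 0, 12, 76 and 92% of genes changed 1.5-, 2-, 4- and 8-fold. The spread of each gene was not simulated, and far fewer genes changed than were called in the data. These shares are therefore not the power of the test for the collagen chains. The labels name no molecular identifiers. No pair of replicates agreed within sampling noise (lowest chi-square per gene 47.6).

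Every collagen chain in the table is named. Full values are given for chains called, for the 12 with the highest mean FPKM and for those with an absolute log2 fold change of at least 1. Other lists are represented by their called genes, at most 4 by size of change, or by the 2 with the highest FPKM where fewer than 2 were called. The members and lists were chosen with earlier results of these data known. Motifs were searched in the RefSeq promoter table of GRCm38.p6.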

Additional observations from a re-analysis of the deposited data

Results flagged for a closer look

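In 2 of 44 sets of 5 control values examined (34 collagen chains, 5 summed collagen measures and 5 chain ratios), a library stood farther from the others than Dixon's critical value of 0.710 for 5 samples allows. Chance flags about 1 in 20 groups, which is about as many as were found. Both values belong to control 2, where Col8a1 was at 40.1 CPM (13.3 to 20.6 CPM in the other controls) and Col7a1 at 17.7 CPM (2.31 to 5.84 CPM in the other controls).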

How the results depend on the processing

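Over the 34 chains under 19 alternatives, leaving out chains without a value, 547 kept their direction and side of the threshold, 25 gained a call, 27 lost it and 33 changed sign. The count of genes called (3705) was 1963 without control 1 and TAD 1. The count of chains called (4) was 8 with DESeq2, 2 with log2(TPM + 1) values, 7 without control 1, control 2 and TAD 2, and 1 to 8 with each library left out (1 without TAD 1, 8 without TAD 2, 7 without TAD 3, 2 without control 4). Without control 1 and TAD 1 it was 0 by edgeR, with 6 chains at an unadjusted p below 0.05; no other tool was run on those libraries. After each gene's group mean was subtracted from its log2 CPM, control and TAD libraries of the same number correlated at 0.427, 0.0972 and 0.544. Those with unlike numbers correlated at -0.652 to 0.457. TAD 1 and TAD 3 correlated most with the control of the same number, and TAD 2 with control 1 (0.362). These values do not decide whether the numbers are a pairing, and the main fit used none. With the replicate block 1255 genes and 2 chains (Col4a4 and Col6a6) were called, on fewer residual degrees of freedom. Controls 4 and 5 have no TAD library of the same number, so they did not inform the fold changes of that fit. The log2(TPM + 1) values moved the share of calls that were higher from 56.2 to 38.6%. Signs changed for 10 chains: Col1a2 (-0.10 with TPM, -0.37 to 0.83 with each library left out), Col27a1 (-0.25 to 0.89 with each left out), Col9a3 (-0.61 to 0.65 with each left out), Col6a3 (-0.00615 with log2(FPKM + 1) with or without the filter, -0.047 with log2(FPKM + 0.1), -0.22 with TPM, -0.81 to 0.70 with each left out), Col5a1 (-0.18 with TPM, -0.43 to 0.74 with each left out), Col15a1 (-0.22 with log2(FPKM + 1) with or without the filter, -0.29 with log2(FPKM + 0.1), -0.46 with TPM, -0.34 with the replicate block, -1.25 to 0.66 with each left out), Col18a1 (-1.46 to 0.19 with each left out), Col28a1 (-0.60 to 1.56 with each left out, -0.17 without control 1, control 2 and TAD 2), Col6a1 (-0.14 with TPM, -0.25 to 0.35 with each left out, -0.15 without control 1 and TAD 1) and Col6a2 (0.0107 with log2(FPKM + 1) with or without the filter, 0.0106 with log2(FPKM + 0.1), -0.27 to 0.26 with each left out, 0.061 without control 1, control 2 and TAD 2). The causes were not tested. The 5 ratios and the collagen share kept their direction under every alternative run. A ratio that alone reached the smallest p of 0.0179 could not pass after adjustment over the 5 ratios, so the adjusted p says nothing about stability. Depth limits chains of low level such as Col19a1, Col6a5, Col4a3 and Col8a2, with as few as 1, 8, 11 and 6 counts in a TAD library.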
